A study of Mus musculus with 8 samples.

Results

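The histone genes were taken as the protein-coding genes whose GENCODE M21 symbol begins with Hist1h to Hist4h, H2af or H3f, together with H1f0 and H1fx. This rule gave 80 genes, 67 in the histone clusters and 13 variant histone genes elsewhere, of which 78 have a row among the 48440 genes of the count files. Of the cluster genes, 54 lie in the Hist1 cluster on chromosome 13, 10 in Hist2 on chromosome 3, 2 in Hist3 on chromosome 11 and 1 in Hist4 on chromosome 6. Poly(A)-selected RNA was sequenced with the strand kept, from mouse embryonic stem (ES) cells on the first day of differentiation (day 1), in 8 libraries of 4 genotypes.

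The starting ES cells were of the MK6 line, from C57BL/6J mice. The paper describes 1 way of differentiation for all groups, without feeder cells and with a GSK3 inhibitor. The groups differ in the Tbxt edit and in what came with making each line. Exon 6 was deleted in cells grown without feeders, under blasticidin. The Alu elements were inserted in cells grown on embryonic fibroblast feeders, under puromycin, with Cre and ganciclovir used later to remove the selection marker. WT cells carry no edit and are the controls. Tbxt delE6/delE6 cells lack exon 6 of Tbxt, the gene of the T-box factor brachyury, on both alleles, and their 2 libraries come from different clones. Tbxt delE6/+ cells lack that exon on 1 allele. Tbxt Insert ASAY cells carry the human AluY and AluSx1 elements inserted in the introns on either side of exon 6, on both alleles. The number of clones behind the other genotypes is not given in the sources used here, so a p-value measures the spread between these libraries and an effect of the edit cannot be told apart from one of the clone.

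Histones are the proteins that DNA is wound around. The core histones H2A, H2B, H3 and H4 are made in bulk during S phase from genes that lie in clusters, and the linker histone H1 is made from genes beside them. The mRNAs of cluster genes normally end in a conserved hairpin rather than a poly(A) tail, so a poly(A)-selected library records only the part of them that carries a tail or slipped through the selection. Most variant histones are made throughout the cell cycle from single genes with introns or long untranslated regions, and their mRNAs are polyadenylated. H2afx, counted as a variant here, has 1 exon and also carries the hairpin, so its mRNA may be recorded only in part.

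A perfect hairpin of this kind was searched on the sense strand of the annotated 3′ UTRs: a stem of 6 bases that begins with GG and pairs fully with a second arm ending in CC, around a loop of 4 bases that begins with TTT. It was found in 44 of the 67 cluster genes (65.7%), in 1 of the 13 variant genes and in 19 of the 21871 other protein-coding genes (0.0869%). Of the 67 cluster genes, 54 have an annotated 3′ UTR, so a gene without a match may only lack the annotation. The first arm of the stem read GGCTCT in 33 of the genes with a hairpin, GGCCCT in 10 and GGTCCT in 2. The sites of the 6 cluster genes on which the results below turn, and of the 1 variant gene with a hairpin, are given as their GRCm38 sense strand from GENCODE M21, with the hairpin in capitals. Each lies in the 3′ UTR of a gene of 1 exon.
Hist1h2ao (plus strand, chr13:21810893-21810918): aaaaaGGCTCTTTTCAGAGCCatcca
Hist1h3c (minus strand, chr13:23745042-23745067): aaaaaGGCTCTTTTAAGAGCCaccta
Hist1h1c (plus strand, chr13:23739507-23739532): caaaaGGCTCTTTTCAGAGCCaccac
Hist1h1e (minus strand, chr13:23621777-23621802): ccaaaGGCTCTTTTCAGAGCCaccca
Hist3h2ba (plus strand, chr11:58949344-58949369): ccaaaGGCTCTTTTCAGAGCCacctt
Hist1h4i (minus strand, chr13:22040961-22040986): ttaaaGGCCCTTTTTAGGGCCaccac
H2afx (plus strand, chr9:44335235-44335260): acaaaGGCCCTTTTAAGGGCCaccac

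The hairpins of Hist1h2ao, Hist1h1c, Hist1h1e and Hist3h2ba are identical, that of Hist1h3c differs from them in the loop, and those of Hist1h4i and H2afx have the other common stem. The annotated transcript stops 31 bases after the hairpin in Hist1h2ao and 74 bases after it in Hist1h3c, but runs on for 169 bases in Hist3h2ba, 330 in Hist1h4i, 822 in H2afx, 840 in Hist1h1c and 1153 in Hist1h1e. A polyadenylation signal (AATAAA or ATTAAA on the sense strand) stands in the 3′ UTR of Hist3h2ba, Hist1h4i, Hist1h1c and H2afx, and in 22 of the 67 cluster genes in all. No such letters stand in the annotated 3′ UTRs of Hist1h2ao, Hist1h3c and Hist1h1e.

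Values are given throughout for replicate 1 and then replicate 2 of a genotype. Reads counted on genes ran from 24618587 to 28445952 a library. Tbxt, the edited gene (T in GENCODE M21, ENSMUSG00000062327), had 47 and 42 reads in the WT libraries, 26 and 22 in the Tbxt delE6/delE6, 39 and 54 in the Tbxt delE6/+ and 30 and 29 in the Tbxt Insert ASAY libraries. Against WT its log2 fold change was -0.81 in Tbxt delE6/delE6 (adjusted p = 0.036 by the quasi-likelihood test of edgeR with Benjamini-Hochberg correction), 0.17 in Tbxt delE6/+ and -0.60 in Tbxt Insert ASAY cells, the last 2 short of an adjusted p of 0.05. Counts over a whole gene cannot show the loss of 1 exon. Pou5f1, a defining gene of ES cells, had 295 and 282 CPM in the WT libraries, 214 and 156 in the Tbxt delE6/delE6, 176 and 184 in the Tbxt delE6/+ and 233 and 228 in the Tbxt Insert ASAY libraries. All 10 ES cell markers listed were tested, and they did not all move one way. In Tbxt delE6/+ cells 2 passed both thresholds higher than WT and 5 lower, beside 6.6% and 6.89% of all tested genes. Of 10 embryonic fibroblast markers, for cells used as feeders in ES cell culture, 7 were tested and S100a4 had no read. Their summed level was 55.5 and 60.9 CPM in the WT libraries, 42.6 and 44.0 in the Tbxt delE6/delE6, 63.5 and 67.4 in the Tbxt delE6/+ and 37.1 and 37.3 in the Tbxt Insert ASAY libraries.

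Variant genes held nearly all histone reads. The cluster genes together had 2356 to 3103 reads a library and the variant genes 55017 to 62685, a summed CPM (counts scaled to one library total, with edgeR's trimmed mean of M values, TMM) 21.4 times as high for the variants as a mean over the 8 libraries. As RPKM, the CPM per kilobase of annotated exons, the tested variant genes lay between a mean of 13.0 (H2afy) and 289 RPKM (H3f3b), and the tested cluster genes between 0.113 (Hist1h2be) and 84.1 RPKM (Hist1h2ao), with a median of 1.34. The order at the top of the cluster genes was Hist1h2ao, Hist1h3c (10.2 RPKM), Hist1h2ap (9.11), Hist3h2ba (8.51), Hist1h4i (6.79), Hist1h2bj (5.63), Hist1h1c (4.70) and Hist1h2bc (3.99), each as a mean over 8 libraries. From Hist1h3c downward the ranges of neighbouring genes over the 8 libraries overlapped, while every Hist1h2ao library lay above every library of the others. Hist1h2ao alone gave 38.8% of the summed CPM of the cluster genes, and these 8 genes gave 73.0%. The part of Hist1h2ao was smaller in unstranded counts. In WT replicate 1 the cluster genes held 0.01091% of the stranded reads, and 0.007347% without Hist1h2ao. Of the unstranded reads they held 0.008034%, and 0.006783% without it.

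Cluster genes of 1 histone are near copies, and reads that match more than 1 place were not counted, so the levels of close copies are uncertain. Among the annotated transcripts of the 80 genes, stretches of 150 bases found in no other member made up 8.46% of Hist1h2ao, 9.01% of Hist1h2ap, 21.7% of Hist1h2ai and 26.3% of Hist2h3b, against 84.4% of Hist1h3c and 100% of every variant gene. The share was under 50% in 20 of the 67 cluster genes. On the strand that was not counted, the cluster genes had 0.531% of their stranded reads. The filter on low counts kept 41 cluster and 10 variant genes among the 17049 genes tested. Called filterByExpr in edgeR, it left out 24 cluster genes, none with more than 54 reads over the 8 libraries, and among them Hist2h2aa1 and Hist2h3c1, which overlap Gm20634 on the same strand, had no read. Hist1h1t, Hist1h2aa and Hist1h2ba, known from the testis, had 4, 4 and 1 reads over the 8 libraries, and the variant genes H2afb1, H2afb2 and H2afb3 on chromosome X had no read. Just inside the filter stood Hist1h2bf, and just outside it Hist1h4j. Hist1h2bm and Hist1h2bh were not analysed here.

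Summed over the 65 cluster genes with counts, the level was 112 and 110.2 CPM in the WT libraries, 102 and 97.4 in the Tbxt delE6/delE6, 106 and 96.3 in the Tbxt delE6/+ and 104 and 104 in the Tbxt Insert ASAY libraries. On this scale every edited library lay below both WT libraries, by a mean of 10.3% in Tbxt delE6/delE6, 8.89% in Tbxt delE6/+ and 6.21% in Tbxt Insert ASAY cells. Without TMM factors the 65 genes held 0.01091% and 0.01073% of counted reads in the WT and 0.0107% and 0.01076% in the Tbxt Insert ASAY libraries, which overlapped. As a share of unstranded reads, Tbxt delE6/+ replicate 1 (0.00781%) lay above WT replicate 2 (0.007629%). Hist1h2ao and the rest of the clusters were ordered differently. Without Hist1h2ao the sum was 75.4 and 71.6 CPM in the WT libraries, 58.3 and 52.0 in the Tbxt delE6/delE6, 72.1 and 66.6 in the Tbxt delE6/+ and 55.9 and 57.2 in the Tbxt Insert ASAY libraries. The 4 libraries of Tbxt delE6/delE6 and Tbxt Insert ASAY cells then stood lowest, 25.0% and 23.1% below the WT mean, and the Tbxt delE6/+ mean 5.72% below it, with 1 of its 2 libraries above the lower WT library. The sums are descriptions without a test. In bulk poly(A) RNA, fewer cells in S phase, less histone mRNA per cell and less of it passing the selection cannot be told apart.

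**Figure D1:**
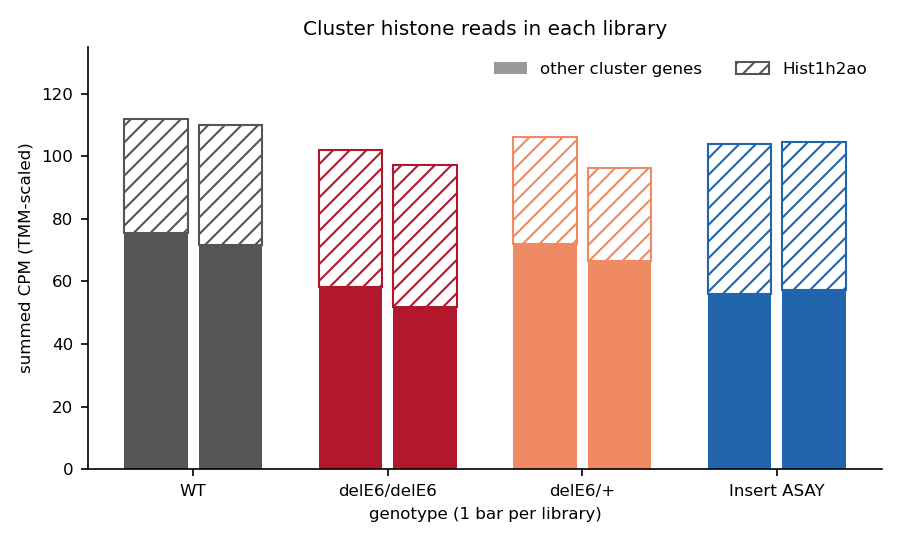
Summed level of the 65 cluster histone genes with counts in each of the 8 libraries, in CPM scaled by TMM factors, 1 bar per library. The hatched part is Hist1h2ao and the solid part the other cluster genes. The solid part lies between 52.0 and 58.3 CPM in Tbxt delE6/delE6 and Tbxt Insert ASAY libraries and between 66.6 and 75.4 in the others.

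By histone, the H3 genes differed most in proportion. Their summed level was 17.6 and 14.6 CPM in the WT libraries, 10.5 and 8.84 in the Tbxt delE6/delE6, 14.5 and 14.3 in the Tbxt delE6/+ and 7.65 and 7.79 in the Tbxt Insert ASAY libraries, so that the Tbxt Insert ASAY mean was 52.0%, the Tbxt delE6/delE6 mean 40.0% and the Tbxt delE6/+ mean 10.6% below that of WT. The Tbxt delE6/delE6 and Tbxt Insert ASAY libraries lay below all 4 others. Much of this was Hist1h3c, with a mean of 9.49 CPM in WT, 5.08 in Tbxt delE6/delE6, 7.33 in Tbxt delE6/+ and 3.78 in Tbxt Insert ASAY cells. Without it the H3 means of Tbxt delE6/delE6 and Tbxt Insert ASAY cells were still below that of WT, and the Tbxt delE6/+ mean was not. The H2B genes stood at 20.2 and 20.3 CPM in the WT libraries, 16.8 and 14.0 in the Tbxt delE6/delE6, 21.5 and 20.3 in the Tbxt delE6/+ and 14.5 and 16.9 in the Tbxt Insert ASAY libraries, again with the Tbxt delE6/delE6 and Tbxt Insert ASAY libraries below the rest. Of the H2B sum, Hist3h2ba alone gave a mean of 6.17 CPM in WT, 3.51 in Tbxt delE6/delE6, 7.43 in Tbxt delE6/+ and 3.78 in Tbxt Insert ASAY cells. The H1 genes ranged from 10.4 to 14.6 CPM and the H4 genes from 9.02 to 13.7, with the WT mean highest in both. H2A genes other than Hist1h2ao differed least, with means of 10.7 CPM in WT, 9.68 in Tbxt delE6/delE6, 11.4 in Tbxt delE6/+ and 10.7 in Tbxt Insert ASAY cells. Other RNAs moved beside these sums. Rn7sk, a nuclear RNA without a poly(A) tail, had 5.88 and 6.77 CPM in the WT libraries, 4.62 and 2.79 in the Tbxt delE6/delE6, 3.63 and 3.68 in the Tbxt delE6/+ and 2.51 and 2.34 in the Tbxt Insert ASAY libraries. The whole list of 18 RNAs without a long poly(A) tail, of which 6 were tested and 3 had no read, summed to 1580 and 1360 CPM in the WT libraries, 1075 and 833 in the Tbxt delE6/delE6, 875 and 972 in the Tbxt delE6/+ and 1605 and 1298 in the Tbxt Insert ASAY libraries, with the Tbxt delE6/delE6 and Tbxt delE6/+ libraries below all others, an order unlike that of the cluster sums. The fibroblast markers given above were lowest in Tbxt delE6/delE6 and Tbxt Insert ASAY cells. The part of these RNAs in the cluster sums was not tested.

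**Figure D2:**
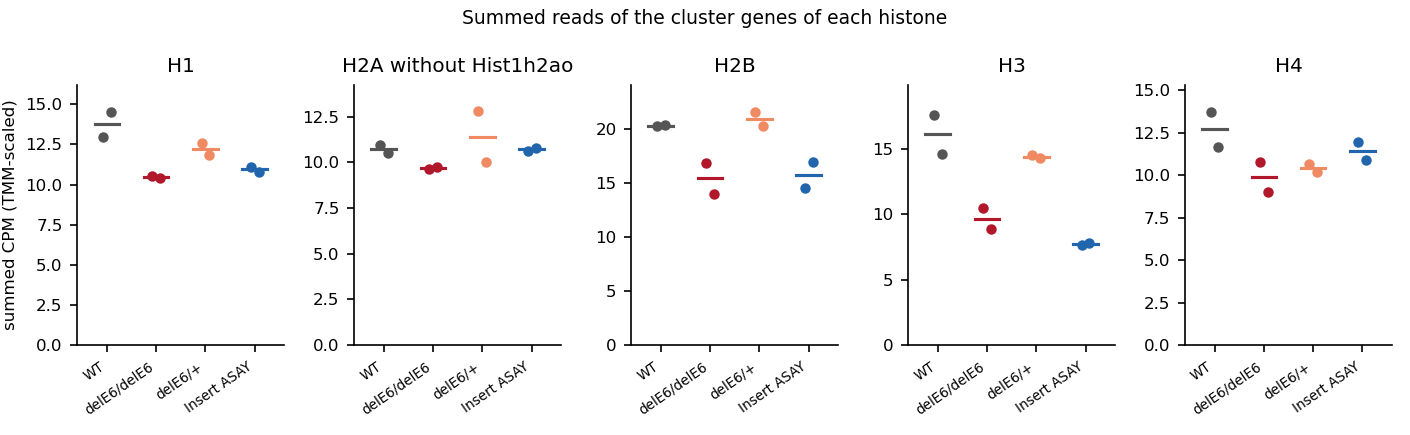
Summed level of the cluster genes of each histone, in CPM scaled by TMM factors, with 1 point per library and a line at the mean of the 2 libraries of a genotype; H2A is shown without Hist1h2ao. H3 and H2B sums of the Tbxt delE6/delE6 and Tbxt Insert ASAY libraries lie below all WT and Tbxt delE6/+ points.

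Hist1h2ao (ENSMUSG00000094248, chr13:21810465-21810944, plus strand), a core H2A gene, was ordered unlike the sum of the other cluster genes. It had 36.6 and 38.5 CPM in the WT libraries, 43.6 and 45.4 in the Tbxt delE6/delE6, 34.0 and 29.7 in the Tbxt delE6/+ and 48.0 and 47.3 in the Tbxt Insert ASAY libraries. On these stranded counts the Tbxt Insert ASAY libraries were highest and the Tbxt delE6/+ libraries lowest, and no genotype overlapped another. In its unstranded shares of reads the Tbxt Insert ASAY libraries were again highest, but those of the other genotypes overlapped. Against WT the log2 fold changes (± SE) were 0.25 ± 0.0726 in Tbxt delE6/delE6, -0.23 ± 0.0744 in Tbxt delE6/+ and 0.34 ± 0.072 in Tbxt Insert ASAY cells, with adjusted p = 0.0191, 0.0286 and 0.00167 by edgeR with Benjamini-Hochberg correction, and all short of the fold threshold of 0.5. Hist1h2ap, its near copy (chr13:21833026-21833507, minus strand), had 3.75 and 3.80 CPM in the WT libraries, 4.62 and 4.36 in the Tbxt delE6/delE6, 5.30 and 2.98 in the Tbxt delE6/+ and 4.96 and 5.34 in the Tbxt Insert ASAY libraries, with no call in any comparison.

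Hist1h3c (chr13:23744973-23745602, minus strand), the most abundant H3 gene of the clusters, fell in both homozygous lines. It had 10.7 and 8.34 CPM in the WT libraries, 5.55 and 4.62 in the Tbxt delE6/delE6, 6.97 and 7.68 in the Tbxt delE6/+ and 3.79 and 3.77 in the Tbxt Insert ASAY libraries. The WT libraries were highest and the Tbxt Insert ASAY libraries lowest, and the 4 genotypes did not overlap. Its log2 fold change against WT was -0.90 ± 0.151 in Tbxt delE6/delE6 (adjusted p = 0.000769), -0.38 ± 0.144 in Tbxt delE6/+ (adjusted p = 0.0643) and -1.33 ± 0.156 in Tbxt Insert ASAY cells (adjusted p = 2.8e-05, all by edgeR with Benjamini-Hochberg correction). Hist3h2ba (chr11:58948920-58949533, plus strand), an H2B gene outside the Hist1 cluster, had 6.57 and 5.77 CPM in the WT libraries, 4.49 and 2.53 in the Tbxt delE6/delE6, 7.84 and 7.03 in the Tbxt delE6/+ and 3.24 and 4.32 in the Tbxt Insert ASAY libraries. Its Tbxt delE6/+ libraries were above all others, its Tbxt delE6/delE6 libraries were the most spread, and it fell in Tbxt delE6/delE6 (-0.82 ± 0.221, adjusted p = 0.0116) and Tbxt Insert ASAY cells (-0.71 ± 0.216, adjusted p = 0.0167 by edgeR with Benjamini-Hochberg correction). The first call ended without WT replicate 1 (-0.73) or Tbxt delE6/delE6 replicate 2 (-0.46), and the second without WT replicate 1 (-0.61) or Tbxt Insert ASAY replicate 1 (-0.52).

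Hist1h4i (chr13:22040636-22041362, minus strand), the most abundant H4 gene, kept a different order. It had 5.41 and 5.29 CPM in the WT libraries, 4.09 and 4.69 in the Tbxt delE6/delE6, 3.63 and 3.06 in the Tbxt delE6/+ and 7.25 and 6.04 in the Tbxt Insert ASAY libraries, highest in Tbxt Insert ASAY and lowest in Tbxt delE6/+ cells, without overlap between any of the genotypes. It fell in Tbxt delE6/+ cells against WT, by a log2 fold change of -0.67 ± 0.163 (adjusted p = 0.00668 by edgeR with Benjamini-Hochberg correction), a call that ended without Tbxt delE6/+ replicate 2 (-0.56). Hist1h2bj (chr13:22043214-22043676, plus strand), an H2B gene, had 3.36 and 3.50 CPM in the WT libraries, 2.55 and 2.53 in the Tbxt delE6/delE6, 2.54 and 2.82 in the Tbxt delE6/+ and 1.75 and 1.83 in the Tbxt Insert ASAY libraries. It was lowest in Tbxt Insert ASAY cells, where it fell by 0.94 on the log2 scale (SE 0.177, adjusted p = 0.000866 by edgeR with Benjamini-Hochberg correction). Hist1h1c, the gene of linker histone H1.2, and Hist1h2bc, an H2B gene, were not called in any of the 6 comparisons. Hist1h1c ranged from 5.83 to 8.78 CPM and Hist1h2bc from 3.89 to 5.82 CPM, and the annotated 3′ UTRs of both hold a polyadenylation signal.

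**Figure D3:**
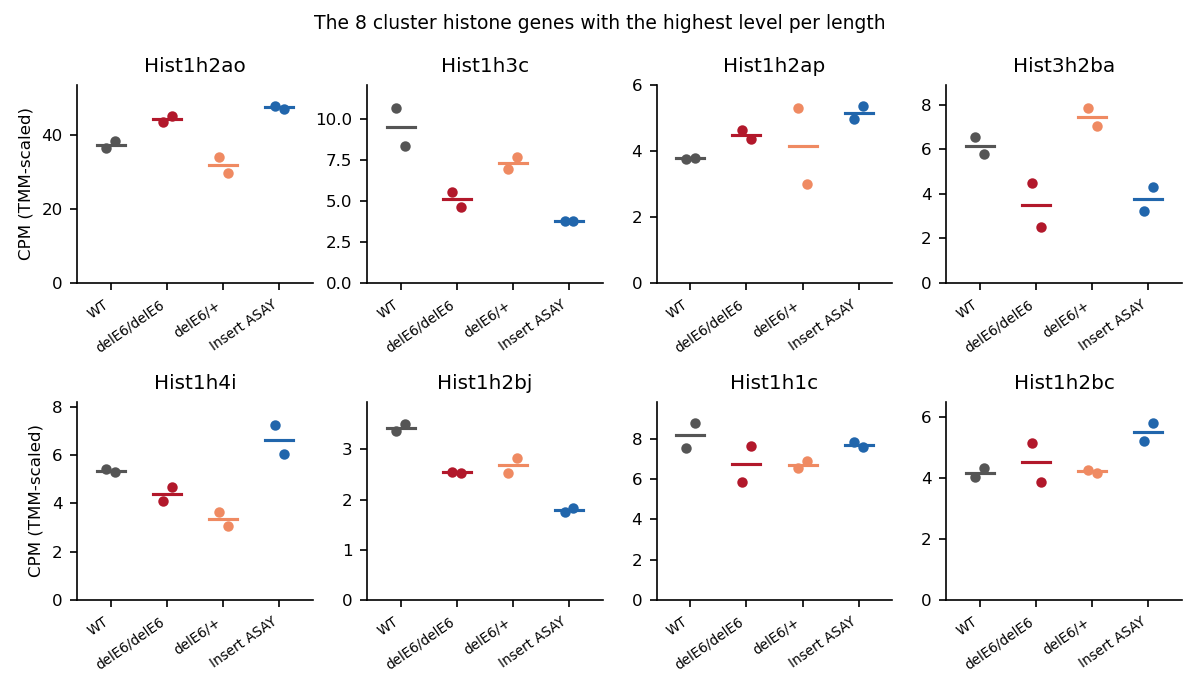
The 8 cluster histone genes with the highest mean level per length, in CPM scaled by TMM factors, with 1 point per library, a line at the genotype mean and a vertical axis from 0 in each panel. Hist1h3c is highest in WT and lowest in Tbxt Insert ASAY, while Hist1h2ao and Hist1h4i are highest in Tbxt Insert ASAY.

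Tbxt delE6/delE6 cells were made to ask what the loss of exon 6 on both alleles does. In them 5 of the 41 tested cluster genes passed against WT, all lower, at an adjusted p below 0.05 with a difference beyond 0.5 on the log2 scale, where 12.7% of all tested genes passed, 6.12% higher and 6.59% lower. These were Hist1h2ak (-1.29 ± 0.44) and Hist1h2bb (-1.07 ± 0.328), genes of core H2A and H2B, with Hist1h3c, Hist3h2ba and Hist1h3e (-0.77 ± 0.204). Hist1h2ak had 0.902 and 0.707 CPM in the WT libraries, 0.283 and 0.367 in the Tbxt delE6/delE6, 0.606 and 0.450 in the Tbxt delE6/+ and 0.328 and 0.768 in the Tbxt Insert ASAY libraries. Hist1h2bb had 0.866 and 1.00 CPM in the WT libraries, 0.526 and 0.367 in the Tbxt delE6/delE6, 0.795 and 0.776 in the Tbxt delE6/+ and 0.620 and 0.586 in the Tbxt Insert ASAY libraries, with the Tbxt delE6/delE6 libraries below all others. At an adjusted p under 0.05 and any fold, 6 cluster genes passed, against 35.4% of all genes. The fold change was negative in 33 of 41, with a median of -0.39 against -0.01 over all tested genes. Both Tbxt delE6/delE6 libraries lay below both WT libraries in 19 of 41, against 34.3% of all tested genes. The count of 5 was 10 without Tbxt delE6/delE6 replicate 1, 1 without Tbxt delE6/delE6 replicate 2, 1 without WT replicate 1, 3 without WT replicate 2 and 2 by DESeq2, and Hist1h3c was called in each of these. By histone, 1 of 8 H2A, 2 of 11 H2B and 2 of 7 H3 genes fell, and none of the 5 H1 and 10 H4 genes was called. Hist1h2ak lost its call without WT replicate 1 (-1.10), WT replicate 2 (-1.45), Tbxt delE6/delE6 replicate 1 (-1.12), Tbxt delE6/delE6 replicate 2 (-1.49), Tbxt delE6/+ replicate 1 (-1.29) or Tbxt delE6/+ replicate 2 (-1.29). Hist1h2bb lost it without WT replicate 1 (-1.17), WT replicate 2 (-0.96) or Tbxt delE6/delE6 replicate 2 (-0.82), and Hist1h3e without WT replicate 1 (-0.72) or Tbxt delE6/delE6 replicate 2 (-0.62).

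In Tbxt delE6/+ cells, with exon 6 lost on 1 allele, 1 of the 41 cluster genes rose against WT and 1 fell, where 13.5% of all tested genes passed, 6.6% higher and 6.89% lower. The genes are Hist2h3b and Hist1h4i, the second described above. Hist2h3b (chr3:96268654-96269141, plus strand), an H3 gene, had 0.397 and 0.447 CPM in the WT libraries, 0.324 and 0.257 in the Tbxt delE6/delE6, 1.17 and 0.817 in the Tbxt delE6/+ and 0.219 and 0.256 in the Tbxt Insert ASAY libraries, so that the Tbxt delE6/+ libraries lay above all others. Its log2 fold change was 1.24 ± 0.341 (adjusted p = 0.014 by edgeR with Benjamini-Hochberg correction). Many genes of chromosome 3 were higher in Tbxt delE6/+ cells: the median over its 848 tested genes was 0.32. Over the 102 tested genes within 2 Mb of Hist2h3b, histone genes left out, it was 0.41, with 31 higher and 4 lower. The other tested genes of the Hist2 cluster, Hist2h2be (-0.08 ± 0.31) and Hist2h4 (-0.19 ± 0.508), were not called. The part of the chromosome 3 shift in the Hist2h3b value was not tested. At an adjusted p under 0.05 and any fold, 3 of 41 passed, against 31.6% of all genes. The fold change was negative in 24 of 41, with a median of -0.05, and both libraries lay below both WT libraries in 12, against 34.9% of all genes. DESeq2 called 1 of the 41. Hist2h3b lost its call without WT replicate 1 (1.15), WT replicate 2 (1.32) or Tbxt delE6/+ replicate 1 (0.95), and Hist1h4i without Tbxt delE6/+ replicate 2 (-0.56). Without WT replicate 2 Hist1h3c was called, at -0.54.

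The insertion of both Alu elements, made to ask whether the pair changes the splicing of exon 6, was compared with WT in the same way. In Tbxt Insert ASAY cells 9 of the 41 cluster genes passed, all lower, where 21.3% of all tested genes passed, 11.5% higher and 9.85% lower. Hist1h1e (chr13:23620629-23622558, minus strand), the gene of linker histone H1.4, had 1.62 and 1.90 CPM in the WT libraries, 1.46 and 0.770 in the Tbxt delE6/delE6, 2.27 and 1.80 in the Tbxt delE6/+ and 0.510 and 0.695 in the Tbxt Insert ASAY libraries, and fell by 1.54 on the log2 scale (SE 0.33, adjusted p = 0.00197 by edgeR with Benjamini-Hochberg correction). Its end overlaps Hist1h2be and the pseudogene Gm11398 on the same strand, where reads shared by these genes were not counted. Hist1h2ai, a core H2A gene, had 1.48 and 1.30 CPM in the WT libraries, 0.891 and 1.17 in the Tbxt delE6/delE6, 1.25 and 1.23 in the Tbxt delE6/+ and 0.620 and 0.329 in the Tbxt Insert ASAY libraries, and fell by 1.54 on the log2 scale (SE 0.324, adjusted p = 0.0017 by edgeR with Benjamini-Hochberg correction). In both genes the Tbxt Insert ASAY libraries were the lowest of the 8. Hist1h2bg (-1.24 ± 0.392) and Hist1h2bj fell among the H2B genes together with Hist3h2ba. Hist1h3c, Hist1h3a (-1.03 ± 0.384) and Hist1h3e (-0.77 ± 0.202) fell among the H3 genes, and Hist1h4k (-1.15 ± 0.435) among the H4 genes. By histone, 1 of 5 H1, 1 of 8 H2A, 3 of 11 H2B, 3 of 7 H3 and 1 of 10 H4 genes fell. All 7 tested H3 genes had a negative fold change, and in 6 of them both Tbxt Insert ASAY libraries lay below both WT libraries, as in 38.5% of all tested genes.

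At an adjusted p under 0.05 and any fold, 10 of the 41 cluster genes passed in Tbxt Insert ASAY cells, against 47.3% of all genes. The fold change was negative in 32 of 41, with a median of -0.58 against -0.01 over all tested genes, and both libraries lay below both WT libraries in 24, against 38.5% of all genes. The count of 9 was 5 without WT replicate 1 and 5 by DESeq2, and Hist1h1e, Hist1h2ai, Hist1h2bj and Hist1h3c were called under every setting that gave them a value. Hist1h2bg lost its call without WT replicate 1 (-0.81) or Tbxt Insert ASAY replicate 1 (-0.89), Hist1h3e without WT replicate 1 (-0.71) or Tbxt Insert ASAY replicate 1 (-0.73), and Hist1h3a without WT replicate 1 (-0.75), Tbxt Insert ASAY replicate 1 (-0.74) or Tbxt Insert ASAY replicate 2 (-1.38). Hist1h4k lost it without any 1 of 6 libraries, the Tbxt delE6/delE6 libraries excepted.

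**Figure D4:**
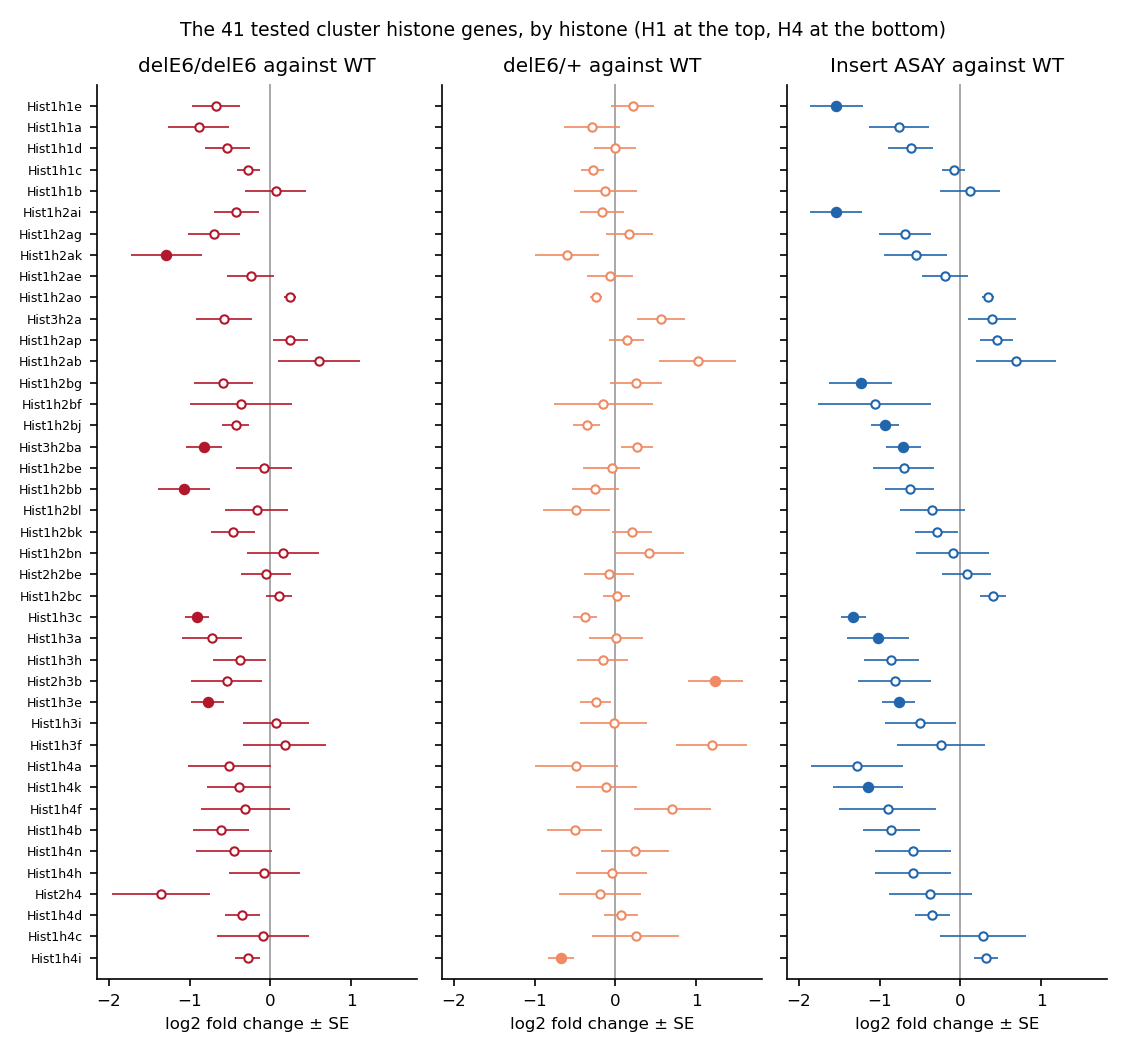
Log2 fold change against WT of the 41 tested cluster histone genes in the 3 edited genotypes, from the fit of all 8 libraries. Points are estimates, bars 1 SE either side, and filled points pass both thresholds. Filled points number 5, 2 and 9, and all 7 H3 genes lie left of 0 in Tbxt Insert ASAY.

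The edited lines were also tested against each other. Between Tbxt delE6/+ and Tbxt delE6/delE6 cells, 6 cluster genes were higher and 0 lower in Tbxt delE6/+ cells, where 22.2% of all tested genes passed, 11.2% higher and 11% lower. Hist2h3b (1.78 ± 0.374), Hist3h2a (1.14 ± 0.324), Hist3h2ba (1.09 ± 0.218) and Hist1h1e (0.89 ± 0.293) differed most, and Hist1h2ag (0.87 ± 0.322) and Hist1h3c (0.53 ± 0.156) completed the 6. Hist3h2a, an H2A gene that overlaps Trim17 on the same strand, had 0.866 and 0.968 CPM in the WT libraries, 0.486 and 0.734 in the Tbxt delE6/delE6, 1.14 and 1.59 in the Tbxt delE6/+ and 1.39 and 1.02 in the Tbxt Insert ASAY libraries, with the Tbxt delE6/delE6 libraries lowest. The 102 tested non-histone genes within 2 Mb of Hist2h3b had a median of 0.41, with 38 higher and 4 lower. Their part in the Hist2h3b value was not tested. At any fold, 7 of 41 cluster genes passed, against 47.1% of all genes. The count of 6 was 11 without Tbxt delE6/delE6 replicate 1, 3 without Tbxt delE6/delE6 replicate 2 and 3 by DESeq2, and the value of Hist1h1e was 1.40 and 0.48 without the one and the other. Hist1h2ag lost its call without Tbxt delE6/delE6 replicate 1 (0.77), Tbxt delE6/delE6 replicate 2 (0.97), Tbxt delE6/+ replicate 1 (0.52), Tbxt Insert ASAY replicate 1 (0.86) or Tbxt Insert ASAY replicate 2 (0.86), and also by DESeq2, with unstranded counts and in a fit of only both genotypes. Hist3h2a lost it without Tbxt delE6/delE6 replicate 1 (0.88) or Tbxt delE6/+ replicate 2 (0.88) and by DESeq2, Hist1h1e without Tbxt delE6/delE6 replicate 2 (0.48) or Tbxt delE6/+ replicate 1 (0.70) and by DESeq2, and Hist1h3c without Tbxt delE6/delE6 replicate 2 (0.40) or Tbxt delE6/+ replicate 2 (0.46).

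In Tbxt Insert ASAY against Tbxt delE6/delE6 cells Hist1h4i was higher (0.59 ± 0.152, adjusted p = 0.0188) and Hist1h2ai lower (-1.12 ± 0.345, adjusted p = 0.0444 by edgeR with Benjamini-Hochberg correction), 2 of 41, where 5.16% of all tested genes passed, 2.79% higher and 2.38% lower. At any fold no further gene passed, against 15.4% of all genes, and 6 had an unadjusted p under 0.05. The median was -0.08. DESeq2 called 0 of the 41. The count was 0 without Tbxt Insert ASAY replicate 1, 4 without Tbxt delE6/delE6 replicate 2 and 1 without any other single library. Hist1h2ai lost its call under 12 of the alternatives, among them DESeq2, library totals, unstranded counts and a fit of only these genotypes. Hist1h4i lost its call under 4, among them DESeq2 and the fit of only these genotypes. The value of Hist1h2ai was -0.74 without Tbxt Insert ASAY replicate 2.

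In Tbxt Insert ASAY against Tbxt delE6/+ cells, 2 of the 41 cluster genes were higher and 11 lower, where 27.5% of all tested genes passed, 14.6% higher and 13% lower. Hist1h4i (0.98 ± 0.159) and Hist1h2ao (0.58 ± 0.0733) were higher, and the call of Hist1h2ao ended without Tbxt delE6/+ replicate 2 (0.48) and with unstranded counts. Hist2h3b (-2.05 ± 0.384), Hist1h1e (-1.75 ± 0.325), Hist1h4f (-1.61 ± 0.546) and Hist1h2bg (-1.49 ± 0.383) were lower by the most. Hist1h4f, an H4 gene, is counted on 65 reads over the 8 libraries, and had 0.397 and 0.223 CPM in the WT libraries, 0.364 and 0.147 in the Tbxt delE6/delE6, 0.492 and 0.531 in the Tbxt delE6/+ and 0.109 and 0.220 in the Tbxt Insert ASAY libraries. Of the 7 H3 genes, 4 were called and in all 7 both Tbxt Insert ASAY libraries lay below both Tbxt delE6/+ libraries, as in 6677 of all 17049 tested genes. At any fold 13 of 41 passed, against 52.9% of all genes, and the median was -0.51. The count of 13 was 7 without Tbxt Insert ASAY replicate 1, 8 without Tbxt Insert ASAY replicate 2 and 8 by DESeq2. Hist2h3b, Hist3h2ba, Hist1h4i, Hist1h1e and Hist1h3c were called under every setting that gave them a value. The 102 tested non-histone genes within 2 Mb of Hist2h3b had a median of -0.34 in this comparison, with 3 higher and 34 lower. Their part in the Hist2h3b value was not tested.

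The variant genes carried far more reads, and smaller differences passed the test. At an adjusted p under 0.05 and any fold, 7 of the 10 tested passed in Tbxt delE6/delE6, 7 in Tbxt delE6/+ and 7 in Tbxt Insert ASAY cells against WT, beside 35.4%, 31.6% and 47.3% of all tested genes. Past the fold threshold as well, 1 rose and 0 fell in Tbxt delE6/delE6, 2 rose and 1 fell in Tbxt delE6/+, and 2 rose and 0 fell in Tbxt Insert ASAY cells, beside 12.7%, 13.5% and 21.3% of all tested genes. Their summed level was 2174 and 2109 CPM in the WT libraries, 2227 and 2184 in the Tbxt delE6/delE6, 2313 and 2273 in the Tbxt delE6/+ and 2284 and 2290 in the Tbxt Insert ASAY libraries, with all 6 edited libraries above both WT libraries.

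H1f0 (chr15:79028450-79030504, plus strand), the gene of the linker histone H1.0 that is best known from differentiated and resting cells, rose in all 3 edited lines. It had 47.3 and 45.0 CPM in the WT libraries, 65.9 and 88.6 in the Tbxt delE6/delE6, 89.2 and 88.8 in the Tbxt delE6/+ and 94.7 and 98.5 in the Tbxt Insert ASAY libraries. All 6 edited libraries lay above both WT libraries, and the Tbxt delE6/delE6 libraries were the most spread. Beside it the 10 ES cell markers had a summed level of 1647 and 1597 CPM in the WT libraries, 1249 and 1092 in the Tbxt delE6/delE6, 1345 and 1286 in the Tbxt delE6/+ and 1349 and 1293 in the Tbxt Insert ASAY libraries, below WT in all 6 edited libraries. The single markers were not all lower, as 2 were called higher and 5 lower in Tbxt delE6/+ cells. Their part in the result was not tested. The log2 fold change of H1f0 was 0.74 ± 0.101 in Tbxt delE6/delE6 (adjusted p = 0.000234), 0.95 ± 0.101 in Tbxt delE6/+ (adjusted p = 1.54e-05) and 1.07 ± 0.1 in Tbxt Insert ASAY cells (adjusted p = 6.61e-06, all by edgeR with Benjamini-Hochberg correction). Each of these calls held under every setting tried. The other linker variant, H1fx, ranged from 74.1 to 87.4 CPM and was not called in any comparison.

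Among the H2A variants, H2afz (chr3:137864487-137866922, plus strand), one of the pair of H2A.Z genes, differed between the edited lines. It had 344 and 337 CPM in the WT libraries, 433 and 455 in the Tbxt delE6/delE6, 259 and 259 in the Tbxt delE6/+ and 468 and 453 in the Tbxt Insert ASAY libraries. The Tbxt delE6/delE6 and Tbxt Insert ASAY libraries were above and the Tbxt delE6/+ libraries below both WT libraries. Against WT the log2 fold change was 0.38 ± 0.0435 in Tbxt delE6/delE6, -0.40 ± 0.0438 in Tbxt delE6/+ and 0.44 ± 0.0434 in Tbxt Insert ASAY cells, with adjusted p = 8.17e-05, 2.16e-05 and 9.51e-06 by edgeR with Benjamini-Hochberg correction, each short of the fold threshold. Between the edited lines the difference passed both thresholds, at -0.78 ± 0.0439 for Tbxt delE6/+ against Tbxt delE6/delE6 and 0.83 ± 0.0439 for Tbxt Insert ASAY against Tbxt delE6/+ cells (adjusted p = 5.5e-08 and 3.23e-08 by edgeR with Benjamini-Hochberg correction). H2afz lies on chromosome 3, where the 14 tested genes within 2 Mb had a median of -0.41 in Tbxt delE6/+ cells against WT. Of these, 0 were called higher and 1 lower, beside 6.6% and 6.89% of all tested genes. For Tbxt delE6/+ against Tbxt delE6/delE6 cells the median was -0.43, with 1 higher and 6 lower, beside 11.2% and 11%. For Tbxt Insert ASAY against Tbxt delE6/+ cells it was 0.40, with 4 higher and 0 lower, beside 14.6% and 13%. The part of this stretch in the H2afz value was not tested. H2afv, the other H2A.Z gene, on chromosome 11, had 79.4 and 72.7 CPM in the WT libraries, 65.2 and 60.6 in the Tbxt delE6/delE6, 80.3 and 81.7 in the Tbxt delE6/+ and 67.8 and 66.8 in the Tbxt Insert ASAY libraries. Its log2 fold changes against WT, -0.28 ± 0.0595 in Tbxt delE6/delE6, 0.09 ± 0.0587 in Tbxt delE6/+ and -0.18 ± 0.0591 in Tbxt Insert ASAY cells, did not reach the fold threshold.

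H2afx, whose protein is phosphorylated around DNA breaks and which carries the one hairpin among the variants, had 139 and 138 CPM in the WT libraries, 186 and 191 in the Tbxt delE6/delE6, 153 and 153 in the Tbxt delE6/+ and 212 and 215 in the Tbxt Insert ASAY libraries. No genotype overlapped another, and it rose in Tbxt Insert ASAY cells (0.62 ± 0.0426, adjusted p = 1.3e-06 by edgeR with Benjamini-Hochberg correction), with 0.44 ± 0.0427 in Tbxt delE6/delE6 and 0.14 ± 0.043 in Tbxt delE6/+ cells. With library totals in place of TMM factors, 4 variant genes passed in Tbxt Insert ASAY cells in place of 2. H2afy, the gene of macroH2A1, which is abundant on the inactive X chromosome, had 77.6 and 72.6 CPM in the WT libraries, 83.7 and 73.4 in the Tbxt delE6/delE6, 119.9 and 117 in the Tbxt delE6/+ and 83.4 and 81.0 in the Tbxt Insert ASAY libraries. It rose in Tbxt delE6/+ cells alone among the comparisons with WT, by 0.66 (SE 0.063, adjusted p = 6.76e-06 by edgeR with Benjamini-Hochberg correction), and the Tbxt delE6/+ libraries were above all 6 others. H2afy2, the gene of macroH2A2, had 46.1 and 48.5 CPM in the WT libraries, 60.1 and 64.8 in the Tbxt delE6/delE6, 68.3 and 60.0 in the Tbxt delE6/+ and 64.6 and 64.3 in the Tbxt Insert ASAY libraries. All 6 edited libraries lay above WT, by 0.40 ± 0.0693, 0.44 ± 0.0693 and 0.45 ± 0.0691 on the log2 scale in Tbxt delE6/delE6, Tbxt delE6/+ and Tbxt Insert ASAY cells, each under the fold threshold. H2afj, the gene of H2A.J, had 53.9 and 51.0 CPM in the WT libraries, 39.6 and 38.0 in the Tbxt delE6/delE6, 31.5 and 34.3 in the Tbxt delE6/+ and 48.3 and 47.3 in the Tbxt Insert ASAY libraries. It fell in Tbxt delE6/+ cells (-0.67 ± 0.0671, adjusted p = 8.79e-06 by edgeR with Benjamini-Hochberg correction), and was -0.44 ± 0.0661 in Tbxt delE6/delE6 and -0.13 ± 0.0649 in Tbxt Insert ASAY cells.

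H3f3a and H3f3b encode the same protein, H3.3, which is placed on DNA outside replication. H3f3b, the most abundant histone gene here per length, had 926 and 897 CPM in the WT libraries, 806 and 723 in the Tbxt delE6/delE6, 1026 and 1024 in the Tbxt delE6/+ and 733 and 752 in the Tbxt Insert ASAY libraries. The Tbxt delE6/delE6 and Tbxt Insert ASAY libraries were below and the Tbxt delE6/+ libraries above WT, and the log2 fold changes of -0.25 ± 0.0505, -0.30 ± 0.0505 and 0.17 ± 0.0504 had adjusted p = 0.00219, 0.000405 and 0.021 by edgeR with Benjamini-Hochberg correction without reaching the fold threshold. H3f3a had 384 and 369 CPM in the WT libraries, 408 and 411 in the Tbxt delE6/delE6, 399 and 373 in the Tbxt delE6/+ and 438 and 429 in the Tbxt Insert ASAY libraries, with log2 fold changes of 0.12 ± 0.046 in Tbxt delE6/delE6, 0.03 ± 0.0461 in Tbxt delE6/+ and 0.20 ± 0.046 in Tbxt Insert ASAY cells. Between the edited lines, the variant calls were H2afz and H2afy. These were 2 of 10 in Tbxt delE6/+ against Tbxt delE6/delE6 cells, where 22.2% of all tested genes passed. H2afj (0.54 ± 0.0674) joined them in Tbxt Insert ASAY against Tbxt delE6/+ cells, giving 3 of 10, where 27.5% of all tested genes passed. No variant passed both thresholds between Tbxt Insert ASAY and Tbxt delE6/delE6 cells, where 5.16% of all tested genes did. At any fold 3 of 10 (H2afj, H2afx and H1f0) passed there, beside 15.4% of all tested genes. In edgeR 3 had an unadjusted p under 0.05, and DESeq2 called 0. For H2afy the log2 fold change was 0.59 ± 0.063 for Tbxt delE6/+ against Tbxt delE6/delE6 cells, lost without Tbxt delE6/delE6 replicate 2, and -0.52 ± 0.0627 for Tbxt Insert ASAY against Tbxt delE6/+ cells, lost with library totals in place of TMM factors.

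**Figure D5:**
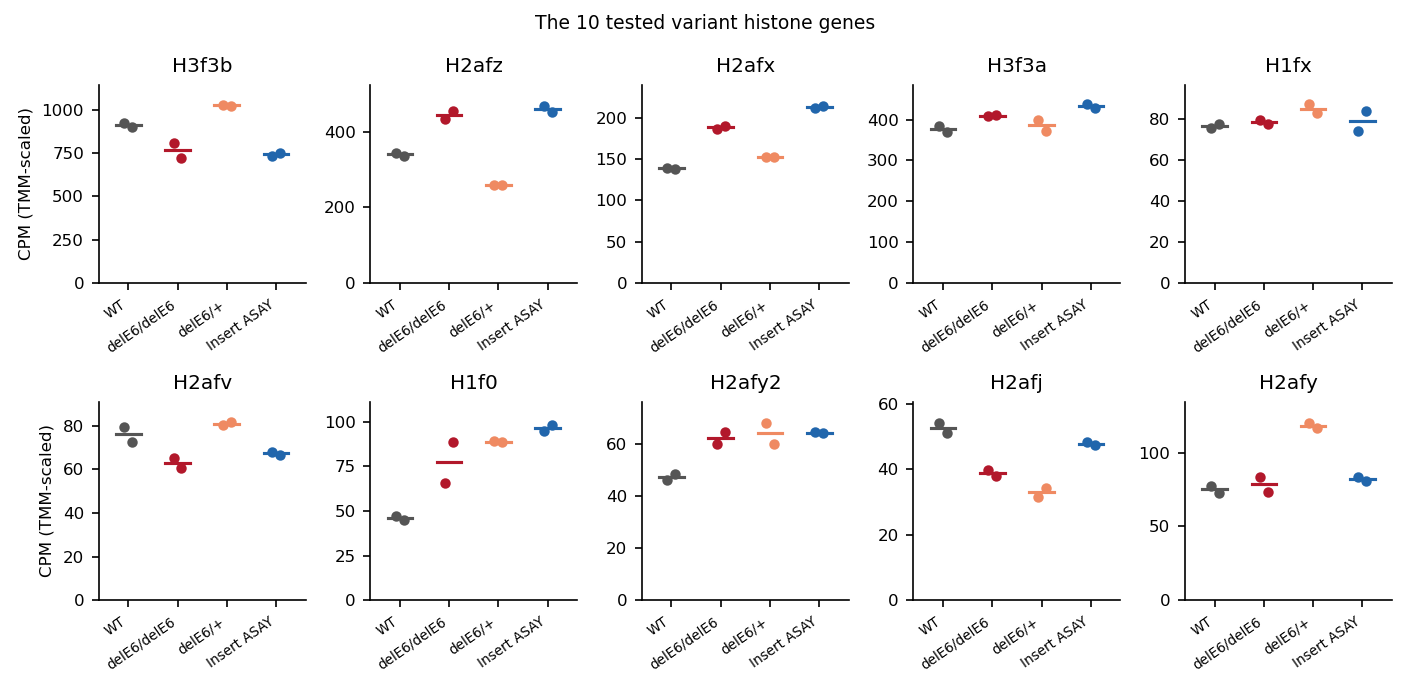
The 10 tested variant histone genes, in CPM scaled by TMM factors, with 1 point per library, a line at the genotype mean and a vertical axis from 0 in each panel. The 6 edited libraries of H1f0 lie between 65.9 and 98.5 CPM, above both WT libraries, and H2afz is lowest and H2afy highest in Tbxt delE6/+.

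Features that the choice of genes did not use were set beside the fold changes in Tbxt Insert ASAY cells, as a description without a test. In that comparison 9.85% of all tested genes fell. Of the 13 tested cluster genes with a polyadenylation signal in the 3′ UTR, 1 fell, with a median log2 fold change of -0.35, and of the 28 without one, 8 fell, with a median of -0.72. In Tbxt delE6/delE6 cells the same medians were -0.28 and -0.43. The 28 genes with a hairpin and the 13 without one had medians of -0.60 and -0.55. Genes with no annotated 3′ UTR were counted as without a signal and without a hairpin, though neither could be seen in them. Hist1h2ai and Hist1h4k, which fell, are among these. The 18 genes that averaged 1 CPM or more had 6 falls and a median of -0.48, and the 23 below it 3 falls and a median of -0.58. The 31 genes with at least 50% of stretches found in no other member had a median of -0.58, and the 10 with fewer had -0.64.

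The Hist1 cluster lies in a pair of blocks 1.49 Mb apart. The first (chr13:21715763-22043676) holds 23 of its 54 genes, Hist1h2ao, Hist1h2ap and Hist1h4i among them, and the second (chr13:23531050-23934851) the other 31, with Hist1h3c, Hist1h1c and Hist1h1e. Of the 15 tested genes of the first block, 3 fell in Tbxt Insert ASAY cells, where 9.85% of all tested genes fell, with a median of -0.50, and of the 21 of the second 5 fell, with a median of -0.70. In Tbxt delE6/delE6 cells these medians were -0.38 and -0.37, and in Tbxt delE6/+ cells -0.12 and -0.05. Over all 618 tested genes of chromosome 13 the medians were 0.01 in Tbxt delE6/delE6, 0.02 in Tbxt delE6/+ and 0.03 in Tbxt Insert ASAY cells. A gene and its neighbour could differ: Hist1h4i and Hist1h2bj lie in the first block within a few kilobases of each other, and in Tbxt Insert ASAY cells their log2 fold changes against WT were 0.31 ± 0.147 and -0.94 ± 0.177.

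The machinery that makes and ends histone mRNAs was read from lists of genes. Against WT, 12.7% of all tested genes passed both thresholds in Tbxt delE6/delE6, 13.5% in Tbxt delE6/+ and 21.3% in Tbxt Insert ASAY cells, the shares beside which the counts of each list stand. Of 18 genes of histone mRNA 3′ end formation, turnover and export, the numbers called higher and lower against WT were 2 and 0 in Tbxt delE6/delE6, 1 and 0 in Tbxt delE6/+ and 3 and 1 in Tbxt Insert ASAY cells, with medians of 0.16, 0.05 and 0.30. Slbp, whose protein binds the hairpin, had 57.6 and 58.9 CPM in the WT libraries, 63.9 and 71.8 in the Tbxt delE6/delE6, 54.0 and 57.9 in the Tbxt delE6/+ and 82.0 and 78.2 in the Tbxt Insert ASAY libraries. It was called only between Tbxt Insert ASAY and Tbxt delE6/+ cells (0.52 ± 0.0653, adjusted p = 2.71e-05 by edgeR with Benjamini-Hochberg correction). Zfp473, which works with the U7 particle that cleaves histone pre-mRNA, rose in Tbxt delE6/delE6 (0.93 ± 0.126) and Tbxt Insert ASAY cells (1.13 ± 0.124), as did Mblac1, a nuclease of the same step (1.61 ± 0.298 and 2.05 ± 0.282). Lsm11, a subunit of the U7 particle, fell in Tbxt Insert ASAY cells (-0.54 ± 0.0779, adjusted p = 0.000119 by edgeR with Benjamini-Hochberg correction), and Ncbp1, a cap-binding protein, rose in Tbxt delE6/+ cells (0.51 ± 0.0443). Of 14 genes of cluster histone transcription, the numbers called higher and lower were 3 and 0 in Tbxt delE6/delE6, 1 and 1 in Tbxt delE6/+ and 4 and 0 in Tbxt Insert ASAY cells. E2f3, an S phase transcription factor, rose in Tbxt delE6/delE6 (0.83 ± 0.115) and Tbxt Insert ASAY cells (1.06 ± 0.114), and so did Nfyc, a subunit of the CCAAT-binding factor NF-Y (0.59 ± 0.103 and 0.77 ± 0.102), and Ccne2, a cyclin E gene (0.73 ± 0.154 and 0.90 ± 0.152). In Tbxt delE6/+ cells E2f2 fell (-0.69 ± 0.188) and Gon4l rose (0.56 ± 0.0488).

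Beside the same shares of all tested genes (12.7%, 13.5% and 21.3%), of 20 genes of general cleavage and polyadenylation the numbers called higher and lower against WT were 2 and 0 in Tbxt delE6/delE6, 1 and 0 in Tbxt delE6/+ and 3 and 0 in Tbxt Insert ASAY cells. Pcf11, a termination factor, rose in all 3 (0.89 ± 0.0912, 0.62 ± 0.0922 and 1.00 ± 0.0907), and Papola, the poly(A) polymerase, in Tbxt delE6/delE6 (0.52 ± 0.0646) and Tbxt Insert ASAY cells (0.63 ± 0.0645). Of 26 histone chaperone genes the numbers were 2 and 0 in Tbxt delE6/delE6, 0 and 0 in Tbxt delE6/+ and 4 and 0 in Tbxt Insert ASAY cells. Dek rose in Tbxt delE6/delE6 (0.56 ± 0.0562) and Tbxt Insert ASAY cells (0.71 ± 0.056), as did Asf1b, which hands H3 and H4 to replicating DNA (0.55 ± 0.151 and 0.76 ± 0.149). Nasp (0.58 ± 0.0569) and Hira (0.58 ± 0.0974), the second a chaperone of H3.3, rose in Tbxt Insert ASAY cells. Most genes of the cell cycle lists were not called. Of 38 DNA replication genes the numbers were 0 and 1 in Tbxt delE6/delE6, 0 and 0 in Tbxt delE6/+ and 3 and 1 in Tbxt Insert ASAY cells, and of 24 mitotic genes 2 and 0 in Tbxt delE6/delE6, 1 and 0 in Tbxt delE6/+ and 1 and 0 in Tbxt Insert ASAY cells. The replication genes summed to 5030 and 5116 CPM in the WT libraries, 4881 and 4838 in the Tbxt delE6/delE6, 5328 and 5462 in the Tbxt delE6/+ and 5147 and 5153 in the Tbxt Insert ASAY libraries. The mitotic genes summed to 3945 and 4010 CPM in the WT libraries, below every edited library. Their sums were 4453 and 4626 CPM in the Tbxt delE6/delE6, 4374 and 4462 in the Tbxt delE6/+ and 4464 and 4476 in the Tbxt Insert ASAY libraries. Their median log2 fold changes against WT were 0.21, 0.14 and 0.22 in that order. The part of the cell cycle in the cluster sums was not tested. Pold1, a DNA polymerase subunit, fell in Tbxt delE6/delE6 (-0.57 ± 0.0605) and Tbxt Insert ASAY cells (-0.58 ± 0.0604), Plk1 (0.51 ± 0.0502) and Kif11 (0.63 ± 0.08) rose in Tbxt delE6/delE6 cells, Kif11 also in Tbxt Insert ASAY (0.74 ± 0.0798) and Cenpe in Tbxt delE6/+ cells (0.78 ± 0.0606). Of 18 RNAs that lack a long poly(A) tail, 6 were tested, and the numbers were 0 and 4 in Tbxt delE6/delE6, 0 and 3 in Tbxt delE6/+ and 0 and 2 in Tbxt Insert ASAY cells. Rn7sk fell in all 3 edited lines (-0.78 ± 0.197, -0.79 ± 0.198 and -1.38 ± 0.208), and the mitochondrial ribosomal RNAs mt-Rnr1 (-0.88 ± 0.116 and -0.80 ± 0.116) and mt-Rnr2 (-0.55 ± 0.116 and -0.64 ± 0.116) in Tbxt delE6/delE6 and Tbxt delE6/+ cells. Over the 10 ES cell markers the numbers were 0 and 5 in Tbxt delE6/delE6, 2 and 5 in Tbxt delE6/+ and 0 and 3 in Tbxt Insert ASAY cells, and over the fibroblast markers 0 and 3 in Tbxt delE6/delE6, 2 and 1 in Tbxt delE6/+ and 0 and 5 in Tbxt Insert ASAY cells.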

How the data were processed

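Poly(A) RNA was sequenced in 2 libraries of each of 4 genotypes. The authors aligned the reads to mm10 with STAR 2.7.2a, whose gene counts they deposited as raw counts of uniquely mapped reads per gene, in 1 unstranded and 2 stranded columns. Stranded counts of the reverse orientation (the fourth column) were used here, after dropping the summary lines. The gene IDs come from an annotation other than GENCODE M21, which supplied symbols and positions. Reads that map to several places are absent, which lowers the counts of near-identical histone genes.

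Genes were kept by filterByExpr (minimum count 10) and scaled by TMM factors. All 8 libraries entered 1 quasi-likelihood fit in edgeR 4.0.16 (R 4.3.3), with 6 contrasts, Benjamini-Hochberg adjustment over the 17049 genes, and calls where the adjusted p was below 0.05 and the difference beyond 0.5 on the log2 scale, up or down. The same fit was tested on simulated data. DESeq2 1.42.0, other scalings, filters and fits, and the loss of each library were tried as alternatives. A value without any 1 library pools the spread over the other genotypes.

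The genes named were Tbxt, every tested variant gene, the 8 cluster genes highest per length, up to 4 rises and 4 falls of cluster genes a comparison, up to 3 called members of each gene list a comparison, and the genes beside the filter. Hist1h3e, Hist1h3a, Hist1h4k, Hist1h2ag, Hist2h2be and Hist2h4, the further called genes of the lists, and the untested or overlapping genes named for their counts were chosen after their values were seen. Members and lists were chosen with earlier results of these data known. Deviations from the group mean of samples sharing a replicate number correlated at -0.00971 to 0.0494, so the numbers were not taken to pair the libraries. Figures were drawn with matplotlib 3.10.9.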

Additional observations from a re-analysis of the deposited data

Results flagged for a closer look

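These results were set apart because 2 edited lines, each compared with the same WT libraries, differed from each other in a direct test by edgeR, with an adjusted p below 0.05 and a difference beyond 0.5 on the log2 scale. The values are log2 fold changes, and the difference between 2 lines cannot be told apart from one between the clones behind them.

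In Tbxt Insert ASAY against Tbxt delE6/+ cells the lower genes were Hist2h3b (-2.05), Hist1h1e (-1.75), Hist1h4f (-1.61), Hist1h2bg (-1.49), Hist1h3f (-1.43), Hist1h2ai (-1.37), Hist1h3a (-1.03), Hist3h2ba (-0.976), Hist1h3c (-0.953), Hist1h2ag (-0.859), Hist1h2bj (-0.579) and H2afy (-0.524). The higher genes were Hist1h4i (0.984), H2afz (0.83), Hist1h2ao (0.579) and H2afj (0.54). In Tbxt delE6/+ against Tbxt delE6/delE6 cells Hist2h3b (1.78), Hist3h2a (1.14), Hist3h2ba (1.09), Hist1h1e (0.888), Hist1h2ag (0.867), H2afy (0.591) and Hist1h3c (0.529) were higher and H2afz (-0.78) was lower. In Tbxt Insert ASAY against Tbxt delE6/delE6 cells Hist1h4i (0.594) was higher and Hist1h2ai (-1.12) lower, calls lost under 4 and 12 of the alternatives. Without Tbxt delE6/+ replicate 1 the Tbxt Insert ASAY against Tbxt delE6/+ values no longer called were those of H2afj (0.48), Hist1h2ag (-0.52), Hist1h2bg (-1.28), Hist1h3a (-0.64), Hist1h3f (-1.15) and Hist1h4f (-1.67). The call of Hist1h2ao ended without Tbxt delE6/+ replicate 2 (0.48) and with unstranded counts (0.47). The calls of Hist2h3b, Hist3h2ba and H2afz in both comparisons of Tbxt delE6/+ cells with another edited line held under every alternative that gave them a value. Hist2h3b and H2afz lie on chromosome 3. The 102 tested non-histone genes within 2 Mb of Hist2h3b had a median of 0.41 in Tbxt delE6/+ against Tbxt delE6/delE6 cells. Of these, 38 were called higher and 4 lower, beside 11.2% and 11% of all tested genes. In Tbxt Insert ASAY against Tbxt delE6/+ cells the median was -0.34, with 3 higher and 34 lower, beside 14.6% and 13%. The medians near H2afz were -0.43 and 0.40 in that order. The part of these stretches in these calls was not tested.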

How the results depend on the processing

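Of the 48 histone calls over the 6 comparisons, 20 held under every alternative that gave a value, 28 were lost under at least 1 and 0 reversed. DESeq2 lost 18 of the 48 and moved the cluster counts from 5 to 2 in Tbxt delE6/delE6 against WT, 2 to 1 in Tbxt delE6/+ against WT, 9 to 5 in Tbxt Insert ASAY against WT, 6 to 3 in Tbxt delE6/+ against Tbxt delE6/delE6, 2 to 0 in Tbxt Insert ASAY against Tbxt delE6/delE6 and 13 to 8 in Tbxt Insert ASAY against Tbxt delE6/+ cells. A minimum of 10 counts in every library, which tests fewer genes, gave 1 in Tbxt delE6/+ against WT and 8 in Tbxt Insert ASAY against Tbxt delE6/+. Unstranded counts gave 1 in Tbxt delE6/+ against WT and 1 in Tbxt Insert ASAY against Tbxt delE6/delE6. Without the genes of chromosome 3, which removes Hist2h3b and H2afz, Tbxt delE6/+ kept 1 cluster call against WT and 1 variant call against Tbxt delE6/delE6. Library totals gave 4 variant calls in place of 2 in Tbxt Insert ASAY against WT and 1 cluster call in Tbxt Insert ASAY against Tbxt delE6/delE6, where a fit of only those 2 genotypes gave 0 and the replicate block 1. The replicate block also lost Hist1h4k in Tbxt Insert ASAY against WT and no other call. Leaving out 1 library gave 1 to 10, 1 to 2, 5 to 12, 3 to 11, 0 to 4 and 7 to 14 cluster calls in these 6 comparisons in order, 1 to 2 variant calls in Tbxt delE6/+ against Tbxt delE6/delE6 and 0 to 1 in Tbxt Insert ASAY against Tbxt delE6/delE6. Over all genes the 2167 calls in Tbxt delE6/delE6 against WT became 1149 to 3388 and the 880 in Tbxt Insert ASAY against Tbxt delE6/delE6 358 to 1529, with 581 by DESeq2 and 572 in the fit of 2 genotypes. Except where fewer genes or libraries entered, the cause was not tested.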
